A study of Homo sapiens with 10 samples.

Results

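Expression of 10 retinoid genes was followed across 4 lines of the human prostate cancer cell line PC3. The genes are CRABP1 and CRABP2, RDH10, DHRS9 and DHRS3, ALDH1A3, and the receptors RARA, RARB, RARG and RXRA. They are 10 of the 23170 genes, and 19 of the 37557 isoform entries, in the deposited tables, and were found by their symbol in the gene column of each table. They were chosen by their FPKM values and ratios in these same tables, so everything below describes the members and nothing tests them. PC3-Epi (2 samples) is an epithelial subline of PC3 that carries a luciferase reporter and was itself obtained by selecting for that phenotype. PC3-EMT14 (3 samples) is a mesenchymal population isolated after PC3-Epi cells had been grown together with macrophages differentiated from human monocytes. The other lines were made by transducing PC3-EMT14 with a lentivirus and selecting the cells. PC3-EMT14-OVOL1 (3 samples) received the transcription factor OVOL1, and PC3-EMT14-OVOL2 (2 samples) received OVOL2 from a vector with a V5 tag. All 4 lines therefore descend from the luciferase-carrying PC3-Epi cells. The reference for both OVOL lines carries the label of PC3-EMT14 itself, and no empty-vector line was analysed here. The samples of a line are described as biological replicates.

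Retinol enters cells and is oxidised to retinal, which is oxidised further to retinoic acid. Retinoic acid is carried by cellular binding proteins and activates nuclear receptors of the RAR family, which bind DNA together with an RXR partner. In prostate and other epithelia this pathway is known for its part in differentiation.

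Every value is in FPKM, fragment counts scaled to transcript length and to the number of mapped fragments, and is the authors' pooled value for a line. Each table holds 1 such value per line and none per sample, so no error or replicate spread can be given here, and the depth is unknown. The tables also hold the authors' own tests over the samples, which were not used, so no difference here has been tested. A gene is called higher or lower where the ratio was at least 2 and the higher line had at least 1 FPKM. Tables were scaled separately. PC3-EMT14 stands in 3 of them, and its member levels differed between tables by at most a factor of 1.03, so each line is set against the PC3-EMT14 value of its own table. GENCODE on GRCh37 places genes of the opposite strand over CRABP1, CRABP2, ALDH1A3, RARA, RARB and RDH10, the last of them including the protein-coding RPL7. The sources used here do not say that counting used the strand, so reads from these members and from such genes cannot be told apart.

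The lines carried their labels. In PC3-EMT14-OVOL1 the OVOL1 level was 11.3 FPKM against 0.0238 FPKM in its parent, and in PC3-EMT14-OVOL2 the OVOL2 level was 831 FPKM against 0.370 FPKM. PC3-Epi itself had 4.25 FPKM of OVOL1 and 9.91 FPKM of OVOL2, so the 831 FPKM of the OVOL2 line lay far above the epithelial level. The epithelial cadherin CDH1 stood at 1.00 FPKM in the parent mesenchymal line, 16.2 FPKM with OVOL1, 39.3 FPKM with OVOL2, and highest in PC3-Epi at 50.6 FPKM. Taken as a ratio to the PC3-Epi level, EPCAM lay nearer to it than CDH1 with OVOL1 and further with OVOL2. GRHL2 lay further than CDH1 in both OVOL lines, and so did ESRP1 with OVOL1. EPCAM was 87.6 FPKM with OVOL1 and 150.6 FPKM with OVOL2 against 224.5 FPKM in PC3-Epi. ESRP1 was 15.2 FPKM with OVOL1 against 84.6 FPKM in PC3-Epi, and its estimate with OVOL2 failed. GRHL2 was 15.0 FPKM in PC3-Epi but only 0.556 FPKM with OVOL1 and 0.544 FPKM with OVOL2. The mesenchymal repressor ZEB1 was 0.130 FPKM in PC3-Epi against 7.59 FPKM, and the mesenchymal filament gene VIM 42.5 FPKM against 270.5 FPKM, while CDH2 and FN1 of the same list were within 2-fold. Of these 4 mesenchymal markers, 0 were called lower with OVOL1 and 3 with OVOL2, where VIM was 76.9 FPKM against 262.0 FPKM. Of 10 macrophage markers, CD68 was the only one above 1 FPKM, and the other 9 were at or below 0.175 FPKM in every line. The 10 summed to 13.5 FPKM in PC3-Epi against 54.4 FPKM in PC3-EMT14, and to 51.6 FPKM (OVOL1) and 58.3 FPKM (OVOL2) in the transduced lines.

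RefSeq promoter windows (GRCh38.p14), running from 250 bases before to 50 bases after a start site, were used for 9 of the 10 members, 20 windows in all. The chromosome of RDH10 was left out, here and in the shares of all windows below. The windows were searched on both strands for CAGGTG, a site bound by ZEB factors, and for CCGTTA, a form of the core of the OVOL motif. They were also searched for direct repeats of the hexamer that RAR and RXR proteins recognise. A repeat was any pair of the hexamers AGGTCA or AGTTCA or GGGTCA or GGTTCA with 1, 2 or 5 bases between them. The 250 bases before the start site are shown for RARB, whose window held the only such repeat among the members, and for the CRABP pair, whose members went opposite ways in PC3-Epi. All 3 were placed on GRCh37, the same sequence as the hg19 build of the files, by an exact match of their letters. Capitals mark a match and each run reads 5′ to 3′.
RARB, chr3:25469504-25469753, plus strand: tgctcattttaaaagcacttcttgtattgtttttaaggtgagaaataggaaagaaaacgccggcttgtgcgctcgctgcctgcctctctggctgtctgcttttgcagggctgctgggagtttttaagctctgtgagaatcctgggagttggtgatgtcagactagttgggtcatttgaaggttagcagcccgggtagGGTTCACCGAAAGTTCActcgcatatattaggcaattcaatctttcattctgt
CRABP1, chr15:78632445-78632694, plus strand: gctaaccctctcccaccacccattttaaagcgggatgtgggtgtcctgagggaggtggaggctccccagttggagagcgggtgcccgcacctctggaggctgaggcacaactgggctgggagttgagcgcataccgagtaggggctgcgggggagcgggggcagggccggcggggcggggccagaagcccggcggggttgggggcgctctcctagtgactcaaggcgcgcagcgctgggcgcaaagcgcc
CRABP2, chr1:156675577-156675826, minus strand: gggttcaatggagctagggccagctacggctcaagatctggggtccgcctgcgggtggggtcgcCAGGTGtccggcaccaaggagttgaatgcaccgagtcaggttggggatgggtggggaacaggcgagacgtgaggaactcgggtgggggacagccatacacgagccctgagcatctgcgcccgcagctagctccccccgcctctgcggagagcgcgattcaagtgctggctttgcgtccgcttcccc

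The RARB match is a direct repeat with 5 bases between its hexamers, a kind that RAR and RXR pairs are known to bind. It lay 53 to 37 bases before the start site, and that start site is the first base of the RARB entry in the files. Such a repeat was present in 31 of 35116 promoter windows (0.0883%). CRABP2 held 1 CAGGTG, a hexamer found in 20.6% of all windows, and 1 further CAGGTG lay in another window of RARB and 1 in a window of DHRS3. No window of a member held CCGTTA, which was in 3.07% of all windows. The OVOL motif allows other letters in this core, and those forms were not searched. The CRABP1 window held none of the letters searched. These matches describe letters and not binding.

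CRABP1 and CRABP2 encode the cytosolic carriers of retinoic acid. CRABP2 is known to hand it to RARs in the nucleus, and CRABP1 to hold it in the cytoplasm and assist its breakdown. CRABP1 (XLOC_006947, hg19 chr15:78632666-78640572) had a larger ratio of highest to lowest line than any other member above 1 FPKM. It was 0.838 FPKM in PC3-Epi against 188.9 FPKM in PC3-EMT14, a 225-fold lower level (log2 ratio -7.82). Of the 12292 genes with a log2 ratio there, only 7 had a lower one. Genes without any FPKM in a line have no ratio and were not ranked. CD68 was lower in PC3-Epi too, at 13.3 FPKM against 54.1 FPKM, and its part in the result was not tested. In a pool of cells, fewer cells that express a gene and less RNA per cell cannot be told apart.

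OVOL1 and OVOL2 lines differed in CRABP1. With OVOL1 it was 184.0 FPKM against 184.8 FPKM in PC3-EMT14 (log2 ratio -0.01). With OVOL2 it was 79.5 FPKM against 182.8 FPKM, 2.30-fold lower (log2 ratio -1.20). The direct table of the OVOL lines gave 79.4 FPKM against 181.9 FPKM, and 71 of the 12034 genes with a ratio had a lower one. The OVOL2 line still stood far above the PC3-Epi level. The 5 entries on each side of CRABP1 on the chromosome, a comparison added after the values were seen, held no gene past 2-fold in any of the 4 comparisons. Between PC3-Epi and PC3-EMT14 their log2 ratios ran from -0.48 to 0.96. Neighbours of CRABP2 and ALDH1A3 held no gene past 2-fold either, but those of each other member held at least 1 in some comparison. Around DHRS9, 3 of 10 neighbours exceeded 2-fold upward in PC3-Epi and 1 downward (log2 ratios from -3.82 to 1.34). The shares of all genes in that comparison were 7.35% upward and 8.33% downward. Sets of 10 neighbours are too small to be told apart from such shares.

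CRABP2 (XLOC_001843, hg19 chr1:156669400-156675608) went the other way in PC3-Epi. It was 263 FPKM there against 119 FPKM in PC3-EMT14, 2.20-fold higher (log2 ratio 1.14). It was 165 FPKM with OVOL1 against 117 FPKM (log2 ratio 0.50), and 103 FPKM with OVOL2 against 116 FPKM (log2 ratio -0.16). Both OVOL values were within 2-fold of PC3-EMT14. Between the OVOL lines CRABP2 was 1.58-fold lower with OVOL2 (log2 ratio -0.66), short of 2-fold. Even so, only 218 of the 12034 genes with a ratio had a lower one.

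The make-up of the CRABP pair therefore differed between the lines, a summary added after the values were seen. CRABP1 made up 61.3% of the summed FPKM of the pair in PC3-EMT14 but 0.318% in PC3-Epi, and 52.7% in the OVOL1 line and 43.5% in the OVOL2 line. The sum itself was 264 FPKM in PC3-Epi against 308 FPKM in PC3-EMT14, while with OVOL2 it was 183 FPKM against 298 FPKM. The PC3-Epi sum was almost all CRABP2, and the OVOL2 line had the lowest sum of the 4 lines. CRABP2 has 2 isoform entries, and the minor one was 7.70% of the gene in PC3-EMT14 and 2.58% in PC3-Epi.

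**Figure D1:**
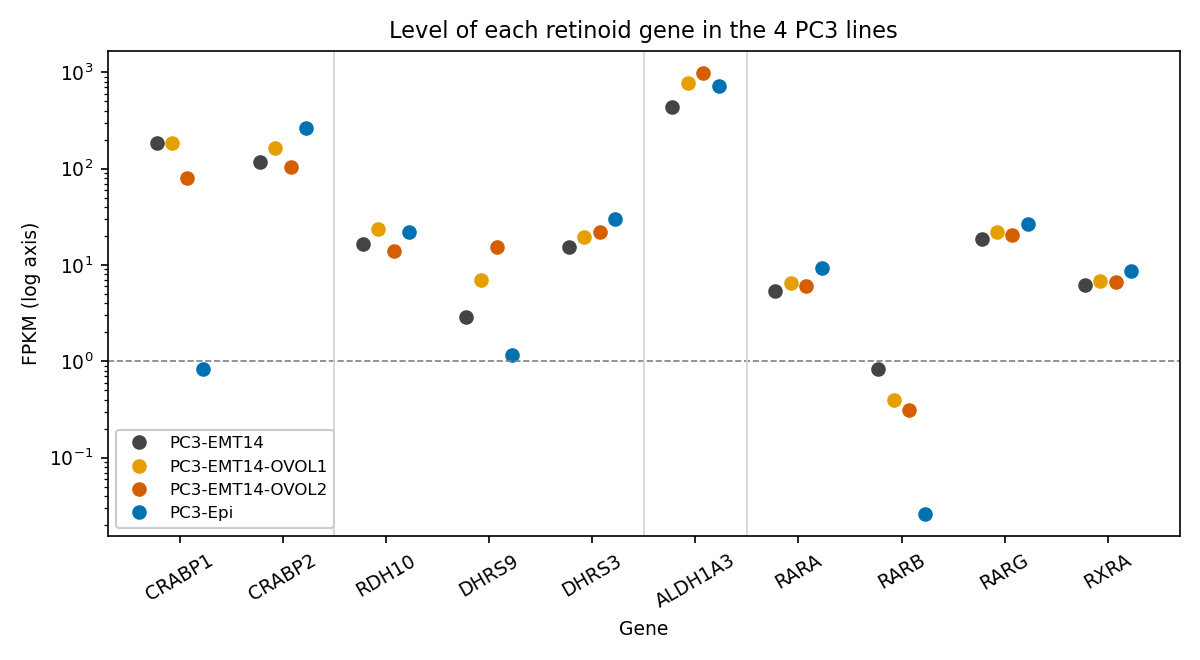
Level of each member in the 4 lines in FPKM on a log axis, 1 point per line (the authors' pooled value, with PC3-EMT14 as the median of its 3 tables), grouped as binding proteins, oxidoreductases, retinal dehydrogenase and receptors. The dashed line marks 1 FPKM. CRABP1 spans 0.838 to 184.8 FPKM, RARB stays under 1 FPKM in every line, and the points of RARG and RXRA lie close together.

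RDH10 and DHRS9 belong to the short-chain dehydrogenases and are known to oxidise retinol to retinal, and DHRS3 to reduce retinal back to retinol. DHRS9 (XLOC_011887, hg19 chr2:169921299-169952677) was the member with the largest fold difference from PC3-EMT14 in both OVOL lines. It was 6.94 FPKM with OVOL1 against 2.86 FPKM in PC3-EMT14, 2.43-fold higher (log2 ratio 1.28). It was 15.6 FPKM with OVOL2 against 2.83 FPKM, 5.50-fold higher (log2 ratio 2.46). In the direct table the OVOL2 line was 2.26-fold above the OVOL1 line, at 15.6 FPKM against 6.87 FPKM.

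In PC3-Epi, DHRS9 was 1.16 FPKM against 2.92 FPKM, 2.52-fold lower (log2 ratio -1.33). The OVOL lines thus moved away from the PC3-Epi level. Of 12350 genes with a ratio in the 3 tables that hold PC3-EMT14, 6 (0.0486%) were at least 2-fold higher in both OVOL lines and at least 2-fold lower in PC3-Epi, and DHRS9 is 1 of them. This pattern was counted after the values of DHRS9 were seen. The PC3-Epi difference lies between levels near 1 FPKM, and with 1 FPKM added to both values the log2 ratio was -0.86, which is short of 2-fold. DHRS9 has 4 isoform entries, of which the main one made up 54.7% of the gene in PC3-EMT14, 54.1% in PC3-Epi, 55.5% with OVOL1 and 56.1% with OVOL2. Each of the 4 entries exceeded its PC3-EMT14 level with OVOL1 and with OVOL2, and no single one carried the difference.

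RDH10 (XLOC_020597), the enzyme known for most retinal production in the embryo, was within 2-fold in all 4 comparisons. It was 22.2 FPKM in PC3-Epi against 16.9 FPKM (log2 ratio 0.39), and 23.6 FPKM with OVOL1 against 16.6 FPKM (log2 ratio 0.51). With OVOL2 it was 13.9 FPKM against 16.4 FPKM (log2 ratio -0.24). The OVOL2 line was therefore 1.68-fold below the OVOL1 line (log2 ratio -0.75). In the table of the OVOL lines, 163 of the 12034 genes with a ratio had a lower one.

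DHRS3 (XLOC_001219, hg19 chr1:12627939-12677820) was 30.3 FPKM in PC3-Epi against 15.6 FPKM, 1.94-fold higher (log2 ratio 0.96). This is just under the 2-fold limit that CRABP2 passed at 2.20-fold. DHRS3 was 19.7 FPKM with OVOL1 against 15.3 FPKM (log2 ratio 0.37), and 21.9 FPKM with OVOL2 against 15.1 FPKM (log2 ratio 0.53). All 3 lines were thus higher than PC3-EMT14, and the order ran from PC3-Epi through the OVOL2 line and the OVOL1 line down to PC3-EMT14.

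Summed over the oxidoreductase trio, the 3 other lines stood close together at 53.6 FPKM in PC3-Epi, 50.3 FPKM with OVOL1 and 51.4 FPKM with OVOL2, against 34.3 to 35.4 FPKM in PC3-EMT14. The genes that made up the sum were not alike. DHRS9 was 8.23% of the sum in PC3-EMT14, 2.16% in PC3-Epi, 13.8% with OVOL1 and 30.3% with OVOL2. DHRS3 made up 56.5% in PC3-Epi, and RDH10 47.0% with OVOL1. These sums were also formed after the values were seen.

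**Figure D2:**
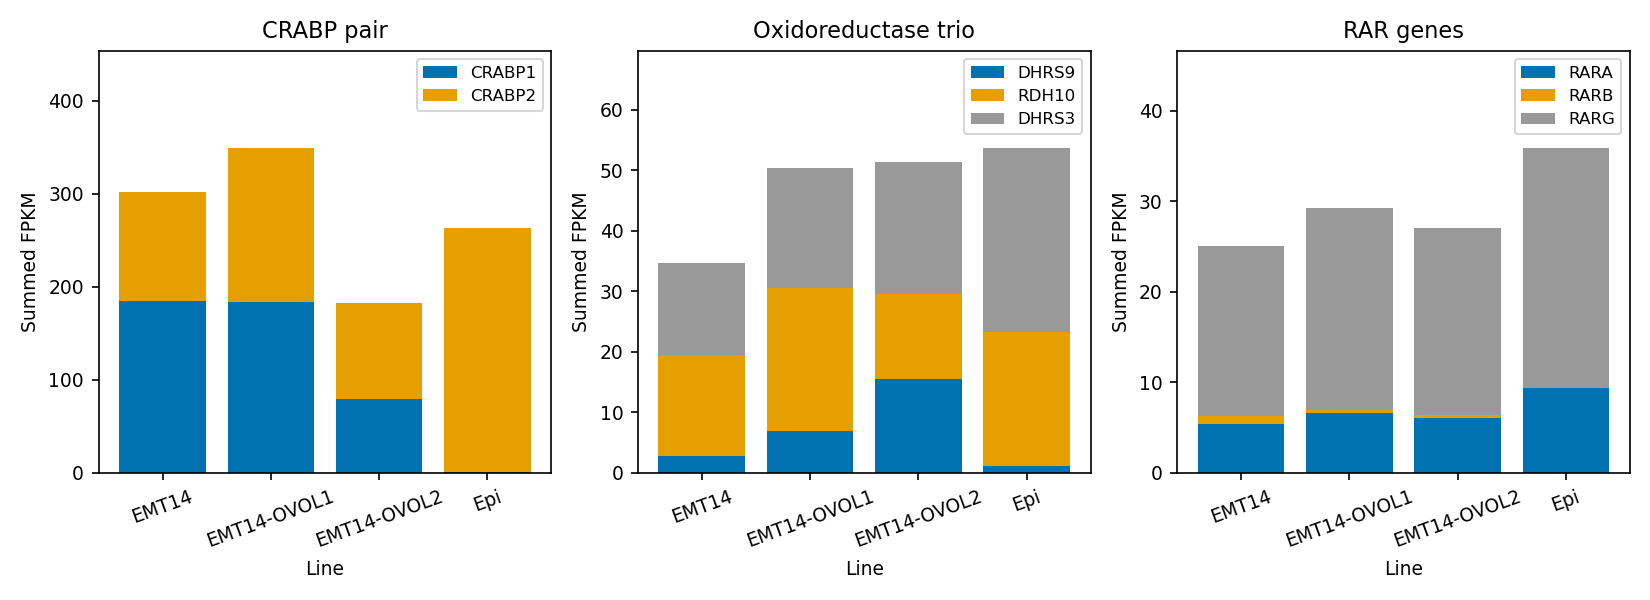
Summed FPKM (linear axis from 0) of the CRABP pair, of the oxidoreductases DHRS9, RDH10 and DHRS3, and of the RAR genes, in bars split by gene, 1 bar per line, PC3-EMT14 shown as the median of its 3 tables. The CRABP1 block is absent from the PC3-Epi bar at this scale, DHRS9 makes up 30.3% of the oxidoreductase bar with OVOL2, and RARG is the largest block of every RAR bar.

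ALDH1A3 (XLOC_007039, hg19 chr15:101420009-101456830) encodes a dehydrogenase that oxidises retinal to retinoic acid, the irreversible step. It was the most abundant member in every line. It was 719 FPKM in PC3-Epi against 447 FPKM in PC3-EMT14 (log2 ratio 0.68), and 785 FPKM with OVOL1 against 438 FPKM (log2 ratio 0.84). With OVOL2 it was 990.5 FPKM against 433 FPKM, 2.29-fold higher (log2 ratio 1.19). The OVOL2 line was the only one past 2-fold, and only 24 genes had a higher level in it. Both OVOL lines stood above PC3-Epi, and they differed from each other by 1.28-fold (log2 ratio 0.35).

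The related retinal dehydrogenases ALDH1A1, ALDH1A2 and ALDH8A1, given as a whole list with no member called, summed to 0.353 FPKM in PC3-EMT14, 0.0241 FPKM in PC3-Epi, 0.143 FPKM with OVOL1 and 0.120 FPKM with OVOL2. None of the 3 reached 1 FPKM, so nearly all transcript of this enzyme class was ALDH1A3 in each line.

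RARA, RARB and RARG encode the retinoic acid receptors, and RXRA a retinoid X receptor that pairs with them. RARG (XLOC_005242, hg19 chr12:53604353-53626036) was the most abundant receptor, at 26.5 FPKM in PC3-Epi against 19.2 FPKM in PC3-EMT14 (log2 ratio 0.46). Its log2 ratio was 0.25 with OVOL1 and 0.16 with OVOL2. RARA (XLOC_008582, hg19 chr17:38465423-38513895) was 9.33 FPKM in PC3-Epi against 5.52 FPKM (log2 ratio 0.76), with log2 ratios of 0.29 for OVOL1 and 0.18 for OVOL2. RXRA (XLOC_021549, hg19 chr9:137218316-137332431) was 8.65 FPKM in PC3-Epi against 6.30 FPKM (log2 ratio 0.46), with a log2 ratio of 0.14 for each OVOL. For RARG and RARA the ratio to PC3-EMT14 was largest in PC3-Epi, then in the OVOL1 line and the OVOL2 line, all within 2-fold. RXRA was likewise highest in PC3-Epi, and the table of the OVOL lines gave it 6.74 FPKM with OVOL2 and 6.73 FPKM with OVOL1 (log2 ratio 0.00). The spread between samples is not known, so neighbours in this order cannot be told apart. RARG made up 75.1% of the summed RAR level in PC3-EMT14 and 73.9% in PC3-Epi, 76.2% with OVOL1 and 76.5% with OVOL2.

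RARB (XLOC_014239, hg19 chr3:25469754-25639422), whose promoter is the textbook target of retinoic acid and holds the repeat printed above, was the 1 member under 1 FPKM in every table, and it enters no count of called members. It was 0.0259 FPKM in PC3-Epi against 0.860 FPKM in PC3-EMT14 (log2 ratio -5.05). It was 0.399 FPKM with OVOL1 against 0.842 FPKM (log2 ratio -1.08), and 0.312 FPKM with OVOL2 against 0.834 FPKM (log2 ratio -1.42). The order of the lines was that of CRABP1, highest in PC3-EMT14 and lowest in PC3-Epi. Its main isoform entry was 0.754 FPKM in PC3-EMT14 and is listed at 0 in PC3-Epi. With 1 FPKM added to both values the log2 ratio between PC3-Epi and PC3-EMT14 was -0.86.

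RARG has 2 isoform entries, which carry no transcript name in the files. TCONS_00008621 was 12.9 FPKM in PC3-Epi against 13.2 FPKM in PC3-EMT14, and TCONS_00008622 was 13.6 FPKM against 6.03 FPKM. The share of TCONS_00008622 was thus 31.4% in PC3-EMT14 and 51.4% in PC3-Epi, against 32.6% with OVOL1 and 39.0% with OVOL2. The move of 19.97 percentage points in PC3-Epi fell just short of the 20 points set for describing an isoform, and RARG is described here because its value was seen. No other member at 1 FPKM or more in both lines of a table reached 20 points.

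**Figure D3:**
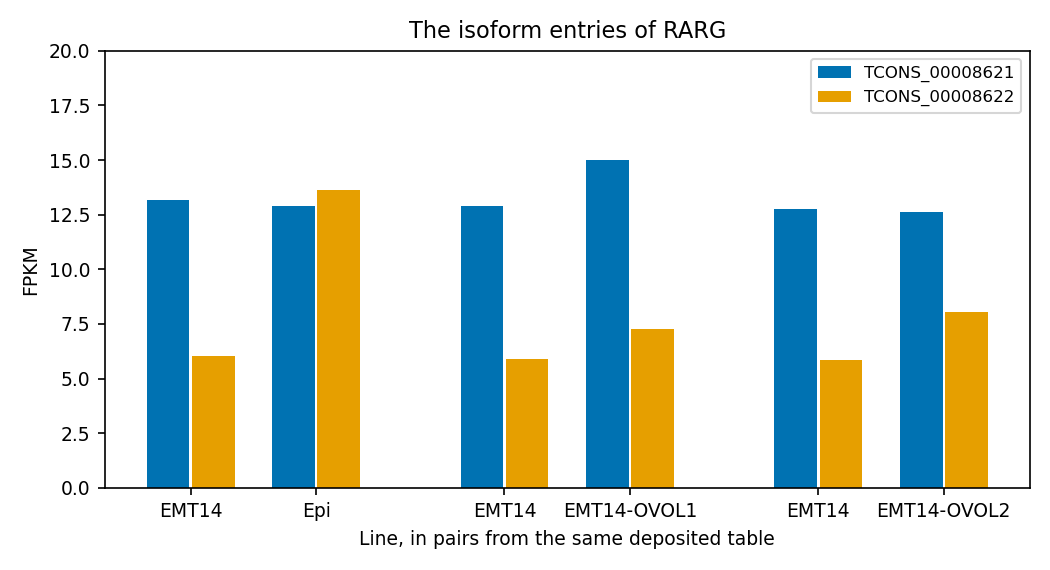
FPKM (linear axis from 0) of the RARG isoform entries in PC3-EMT14 and in the line set against it, in pairs from the same table, 1 bar per entry and line with no error available. TCONS_00008622 is 13.6 FPKM in PC3-Epi against 6.03 FPKM in PC3-EMT14, while TCONS_00008621 is 12.9 against 13.2 FPKM.

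Counted over the 10 members, 9 had at least 1 FPKM in the higher line of each comparison. Between PC3-Epi and PC3-EMT14, 1 was called higher (CRABP2) beside 7.35% of 12388 genes, and 2 were called lower (CRABP1 and DHRS9) beside 8.33%. With OVOL1, 1 was called higher (DHRS9) beside 2.42% of 12128 genes, and 0 lower beside 1.53%. With OVOL2, 2 were called higher (DHRS9 and ALDH1A3) beside 4.41% of 12242 genes, and 1 lower (CRABP1) beside 2.92%. Between the OVOL lines, 1 was called higher with OVOL2 (DHRS9) beside 1.89% of 12106 genes, and 1 lower (CRABP1) beside 1.17%. The ratios themselves chose the members, so nothing is read from these counts against the background.

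The median log2 ratio of the 9 members was 0.46 in PC3-Epi, 0.37 with OVOL1, 0.16 with OVOL2 and -0.09 for OVOL2 against OVOL1. The medians of all genes were -0.01, -0.00, -0.04 and -0.04 in that order. In PC3-Epi 7 members stood above a ratio of 1 and 2 below, with OVOL1 8 above and 1 below, and with OVOL2 6 above and 3 below. The 3 comparisons with PC3-EMT14 share its samples, so these counts are not independent of each other. Altogether 4 members (CRABP1, CRABP2, DHRS9 and ALDH1A3) passed 2-fold somewhere, and 5 (RDH10, DHRS3, RARA, RARG and RXRA) stayed within 2-fold in all 4 comparisons. The share of all genes past 2-fold in at least 1 comparison was not counted, so nothing is read from this split.

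**Figure D4:**
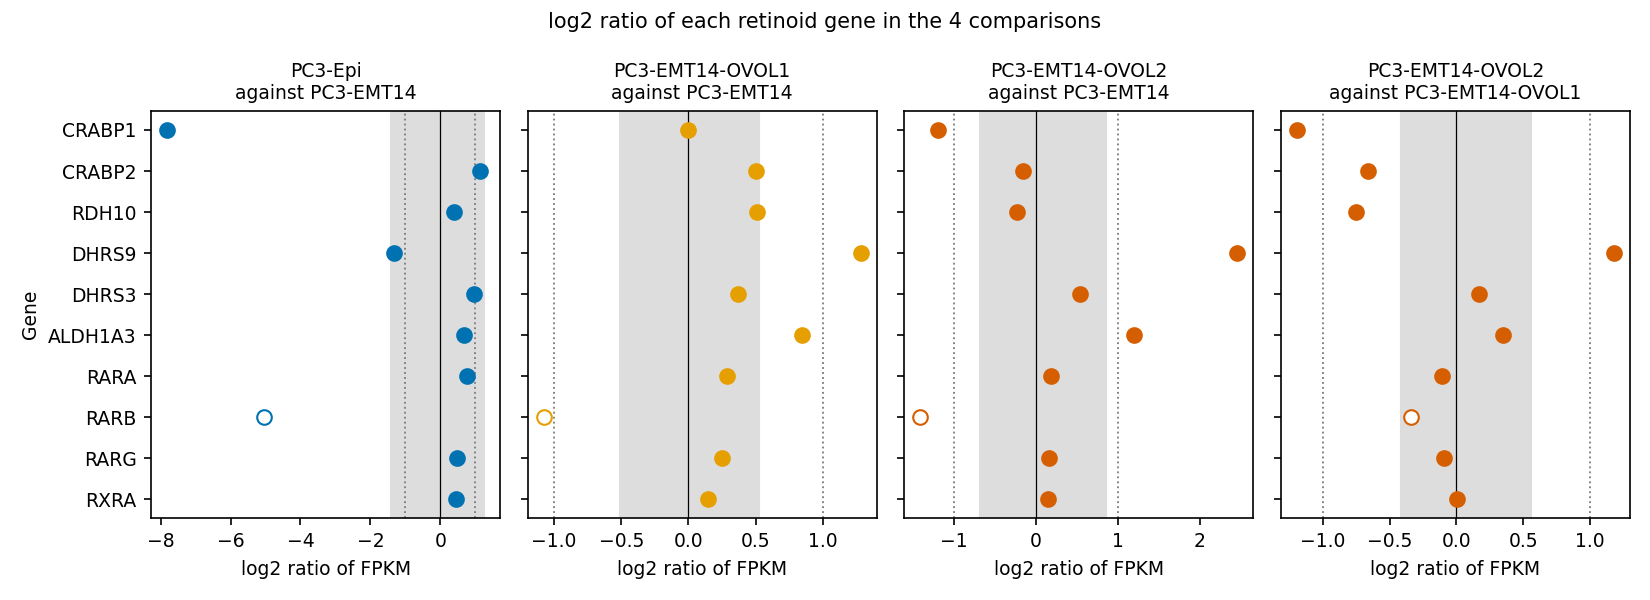
log2 ratio of FPKM for each member in the 4 comparisons, 1 panel each with its own horizontal scale. Grey bands span the 5th to 95th percentile of all genes at 1 FPKM or more, dotted lines mark 2-fold, and open points are under 1 FPKM in both lines. CRABP1 lies at -7.82 in the PC3-Epi panel and at -0.01 in the OVOL1 panel, and DHRS9 lies right of the band in each panel with an OVOL line.

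Outside the members, 54 genes of the pathway in 8 lists were followed, of which 29 or 30 reached 1 FPKM in the higher line of a comparison. Between PC3-Epi and PC3-EMT14, 4 of 29 were called higher beside 7.35% of all genes, and 1 lower beside 8.33%. With OVOL1, 1 of 29 was higher beside 2.42% and 0 lower beside 1.53%. With OVOL2, 3 of 30 were higher beside 4.41% and 0 lower beside 2.92%. Between the OVOL lines, 2 of 30 were higher with OVOL2 beside 1.89% and 1 lower beside 1.17%. These counts come from 8 different genes and were not tested against the background.

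Among the oxidoreductases, AKR1B10, an aldo-keto reductase that reduces retinal, was the 1 gene called in all 3 comparisons with PC3-EMT14. It was 9.04 FPKM in PC3-Epi against 1.03 FPKM (log2 ratio 3.14), 8.70 FPKM with OVOL1 (log2 ratio 3.12) and 13.5 FPKM with OVOL2 (log2 ratio 3.77). Its near-identical relatives could share reads with it, so the value is uncertain to that extent. RDH16, a retinol dehydrogenase, was 1.25 FPKM with OVOL2 against 0.112 FPKM (log2 ratio 3.48), and 0.472 FPKM with OVOL1 in the table of the OVOL lines. SDR16C5, also a retinol dehydrogenase and named after its values were seen, was 2.62 FPKM with OVOL2 against 0.751 FPKM (log2 ratio 1.80). Of the 17 genes of this list, 7 to 9 reached 1 FPKM in a comparison, and 0 of those were called lower. RDH5 and RDH14 count here, and in the total above, through entries shared with BLOC1S1 and NT5C1B. Their levels cannot be assigned to the retinoid gene alone. The share of all genes called lower ran from 1.17% to 8.33% over the 4 comparisons. So few genes cannot be told apart from such shares.

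In the list of uptake, binding and storage, STRA6, the retinol uptake receptor, was 1.47 FPKM in PC3-Epi against 0.0923 FPKM, 16.0-fold higher. RBP7, a retinol-binding protein named after its values were seen, was 6.29 FPKM against 2.95 FPKM (log2 ratio 1.09). RBP4, the plasma carrier of retinol, was 2.62 FPKM with OVOL2 against 6.49 FPKM with OVOL1 (log2 ratio -1.31), on either side of its 4.20 FPKM in PC3-EMT14.

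Downstream of the receptors, TGM2, a transglutaminase induced by retinoic acid in many cells, was 294 FPKM in PC3-Epi against 109 FPKM (log2 ratio 1.43). BHLHE40, a transcriptional repressor of the same list, was 24.7 FPKM in PC3-Epi against 118 FPKM (log2 ratio -2.26). Of the 8 genes of this list, 6 reached 1 FPKM in the comparison of each OVOL line with PC3-EMT14. With OVOL1, 0 of these 6 were called, beside 2.42% of all genes higher and 1.53% lower. With OVOL2, 0 were called, beside 4.41% higher and 2.92% lower. A list of 6 genes is too short to read these counts against such shares. CYP26B1, which breaks down retinoic acid and is named here although it was not called, was the only gene of its list at 1 FPKM, at 1.17 FPKM in PC3-Epi against 2.18 FPKM (log2 ratio -0.90), with log2 ratios of -0.69 for OVOL1 and -0.73 for OVOL2. All 3 lines were lower than PC3-EMT14 and none passed 2-fold. FABP5, a fatty acid carrier that can also take retinoic acid to PPARD, was not called either and is named for its level. It stood at 226 FPKM in PC3-Epi against 193 FPKM (log2 ratio 0.23). All 6 receptor coregulators reached 1 FPKM and none was called in any comparison. The share of all genes called ran from 1.17% to 8.33% per direction, so nothing is read from this. The 2 carotenoid cleavage genes stayed under 1 FPKM in every comparison and could not be called.

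**Figure D5:**
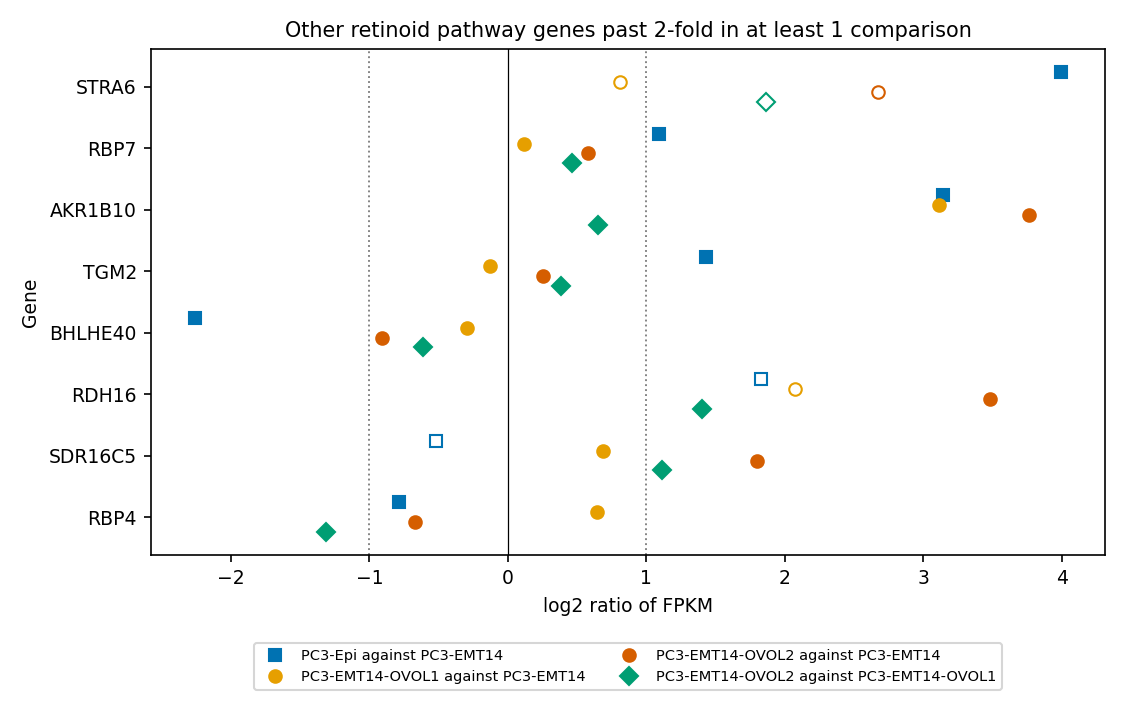
log2 ratio of FPKM for the 8 pathway genes outside the members that passed 2-fold in at least 1 comparison, 1 marker per comparison. Dotted lines mark 2-fold, and open markers are under 1 FPKM in both lines. AKR1B10 lies past 2-fold against PC3-EMT14 in all 3 lines, and BHLHE40 is at -2.26 in PC3-Epi.

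The 5 genes whose log2 ratios to PC3-EMT14 in the 3 lines lay nearest to those of CRABP1, by Euclidean distance among 12350 genes, were PCSK5 (distance 1.03), SHANK1 (1.14), NTSR1 (1.16), ZFPM2 (1.19) and TMEM200C (1.27). PCSK5 had a log2 ratio of -7.13 in PC3-Epi, -0.05 with OVOL1 and -0.43 with OVOL2. ZFPM2 had -8.93 in PC3-Epi, -0.43 with OVOL1 and -1.24 with OVOL2. These distances are set mostly by the ratio to PC3-Epi and rest on 1 pooled value per line. In all, 143 of the 12350 genes (1.16%) were at least 2-fold lower in PC3-Epi and with OVOL2 while within 2-fold with OVOL1, as CRABP1 was, a pattern counted after its values were seen.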

How the data were processed

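The tables come from paired-end RNA-seq of 10 samples in 4 lines. The authors aligned reads to hg19 with TopHat and ran Cuffdiff. They deposited 4 pairwise comparisons, each as a gene and an isoform table with 1 FPKM value per line, pooled over its samples. The same tables hold the authors' own fold changes, test statistics, p-values and q-values. These were not used. The status column served only to drop failed estimates. There were 0 columns of values per sample, so no test, error or interval was computed, and the depth of each sample is unknown.

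Ratios were taken within a table with no pseudocount. A gene was called at 2-fold with 1 FPKM or more in the higher line. All 10 members were named, and from each other list the gene with the largest called change in either direction. Exceptions are RBP7, SDR16C5, CYP26B1, FABP5 and the retinal dehydrogenase list, named after their values were seen. The members and lists were chosen with earlier results of these data known. Promoters are from RefSeq. The scripts ran in Python 3.11.15 with pandas 2.3.3. The calling step was run on simulated data whose changed genes all lay well past the 2-fold limit. That run says nothing of genes near the limit.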

Additional observations from a re-analysis of the deposited data

How the results depend on the processing

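Alternatives covered the fold limit, the floor, pseudocounts, isoform sums and centring on the median of all genes. With a 1.5-fold limit the called members numbered 6 in PC3-Epi against PC3-EMT14, 2 with OVOL1 and 4 between the OVOL lines, in place of 3, 1 and 2. With a 4-fold limit they were 1 in PC3-Epi (CRABP1), 0 with OVOL1, 1 with OVOL2 (DHRS9) and 0 between the OVOL lines. Without a floor OVOL1 gave 2, RARB being the added one. With a floor of 5 FPKM the median log2 ratio in PC3-Epi was 0.57. The other 16 counts stayed within 1.5 times, and the other 23 medians within 0.1 on the log2 scale. A pseudocount of 1 FPKM moved 9 member ratios by more than 0.1, those of DHRS9 and RARB in all 4 comparisons and of CRABP1 in PC3-Epi (log2 ratio -6.69), and reversed none. The direct OVOL2 table and the difference of the ratios to PC3-EMT14 gave the same values to 2 decimals. No paired analysis was possible because the tables hold 1 pooled value per line and none per replicate. For the same reason no replicate could be left out, and levels near 1 FPKM are the least certain.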
